A study of Mus musculus with 5 samples.

Results

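The fibroblast growth factor (FGF) genes and FGF receptor genes described here were Fgf1, Fgf3, Fgf9, Fgf10, Fgf12, Fgf13, Fgf14, Fgfr1, Fgfr2 and Fgfr3, which are 10 of the 15093 genes in the deposited table. They were found by gene name. The set was chosen by gene family and with the log2 fold differences between the fear conditioned and control libraries already known, and the study itself names Fgf3. The difference of each of these genes between the groups is therefore a description and carries no test. RNA was taken from adult Drd2-TRAP mice, in which a Drd2-Cre driver switches on an EGFP-tagged ribosomal protein (Rpl10a) from a floxed-stop allele, and both groups carried both alleles. Tagged ribosomes were pulled down from bilateral 1 mm punches of the central amygdala (CeA), with 3 animals pooled per library. There were 3 fear conditioned (FC) libraries, numbered 2, 3 and 4, and 2 Home Cage control libraries, numbered 6 and 7. The labels place collection 2 h after extinction, whereas the study's text describes collection after conditioning and controls that heard tones. The labels do not say how the pools relate to litters or days, so the spread between libraries is the only error available.

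FGFs fall into classes that work in different ways. Secreted ligands such as Fgf1, Fgf3, Fgf9 and Fgf10 bind receptor tyrosine kinases with the help of heparan sulfate, and the receptors signal through the adaptor Frs2 to the MAP kinase cascade, whose output induces its own inhibitors. The FGF homologous factors (Fgf12, Fgf13, Fgf14) are not secreted in the usual way. They stay inside neurons, where they bind voltage-gated sodium channels and tune excitability. In the brain, Fgfr3 is known as a receptor of astrocytes, and Fgfr2 as one of glia and of some neurons.

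Of the secreted ligands in the chosen set, Fgf3 and Fgf10 were those higher in every FC library than in both controls. The stretch of DNA just before their start sites is shown because both turned out to be rich in pyrimidines on the coding strand. Fgf16, a ligand outside that set, was also higher in every FC library, and its sequence is not shown. The sequences are the 250 bases before the transcription start in RefSeq (mouse build GRCm38.p6), written 5′ to 3′ on the strand of the gene. Capitals mark the longest unbroken run of C and T. In Fgf3 an unmarked run nearer the start is equally long. The Fgf3 window is chr7:144838362-144838611 and the Fgf10 window is chr13:118714449-118714698, both on the plus strand.
Fgf3: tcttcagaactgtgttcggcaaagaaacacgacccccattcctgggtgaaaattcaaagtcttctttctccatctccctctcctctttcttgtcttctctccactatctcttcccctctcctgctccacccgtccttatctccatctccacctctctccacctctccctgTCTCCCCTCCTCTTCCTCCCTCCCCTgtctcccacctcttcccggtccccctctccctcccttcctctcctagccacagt
Fgf10: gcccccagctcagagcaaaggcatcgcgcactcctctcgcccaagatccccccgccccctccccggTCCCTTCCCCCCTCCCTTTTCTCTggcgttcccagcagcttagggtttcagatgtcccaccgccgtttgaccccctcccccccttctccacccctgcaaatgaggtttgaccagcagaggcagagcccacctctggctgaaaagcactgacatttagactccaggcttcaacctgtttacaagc

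In the Fgf3 window 79.2% of the bases were C or T, a higher share than in 99.9% of the 32851 promoter windows of the same length, whose median was 50%. Its longest pyrimidine run spanned 26 bases, and a run at least as long was found in 1.04% of the windows. The run in capitals lay from 80 to 55 bases before the start, and an unmarked run of equal length lay nearer the start. The Fgf10 window held 63.2% pyrimidines, more than 97.5% of the windows, with a run of 24 bases (1.57% of windows had one as long). RefSeq gave 15 windows for 8 of the 10 genes, with Fgf1 and Fgfr1 not among them. The pyrimidine share of the other 13 windows ran from 41.6% for a window of Fgfr3 to 65.2% for that of Fgf14. The Fgf14 window was thus richer in pyrimidines than that of Fgf10, although the groups overlapped for Fgf14. Short motifs were searched on both strands: the full cAMP response element TGACGTCA (in 1.55% of all windows), the shorter element TGACG that overlaps with it (17.8%), the AP-1 site TGANTCA (6.75%), the E-box CACGTG (6.02%) and the TATA box TATAAA (12.4%). None of these letters was in the Fgf3 or Fgf10 window, while the Fgf9 window and 1 window of Fgf12 held TGACG, and 1 window each of Fgf12 and Fgf13 held TGANTCA.

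The deposited values are counts per 1000000 of an effective library size, called CPM here. Whole reads could be recovered from them, and the libraries held between 19605318 and 27937520 reads on genes, so that 3 reads, taken as the limit that a count of 0 allows, were worth 0.10 to 0.158 CPM. Intervals and floors cover counting error only. Across genes, the FC libraries resembled each other (Pearson's r of 0.979 to 0.986 on log2 values), while the controls did not (r of 0.787). Control 7 listed 2681 genes at 0 and control 6 listed 976, against 159 to 349 in the FC libraries. The median gene differed by 1.08 (log2) between the controls and spanned 0.44 over the 3 FC libraries. Drd2, the gene that drives the tag, was at 326, 375 and 555 CPM in the FC libraries against 128 and 262 CPM in the controls, and the summed markers of indirect pathway neurons ran higher in the FC libraries (22812 to 25051 CPM) than in the controls (8609 to 14555 CPM). The 10 markers of CeA neurons summed to 212 to 343 CPM against 420 to 633 CPM, with 2 of them at 0 in control 7. The direct pathway striatal markers ran higher in the FC libraries (186 to 380 CPM against 119 and 125 CPM), and the 9 microglia markers overlapped. The markers of several other cell types ran lower in sum. The 15 astrocyte markers summed to 1097 to 1366 CPM against 2652 to 3243, the 12 oligodendrocyte markers to 1342 to 2857 against 2945 to 5629, and the choroid plexus markers to 112 to 185 against 1922 to 2242. In these pooled pull-downs, fewer cells of a type, less RNA per cell and a different carry-over of RNA from untagged cells cannot be told apart. The part that these shifts had in the values below was not tested, except where a ratio is given.

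Of the 10 genes, 3 had every FC library above both controls (Fgf3, Fgf10, Fgfr2), 1 had every one below (Fgfr3), and 6 overlapped. Over all 13560 genes with a mean of at least 1 CPM, groups did not overlap for 36.4%, with 20.2% higher and 16.1% lower. Nothing about the family is read from that comparison, since the genes were chosen with this contrast known. All 10 genes passed the filter on low values, Fgf10 only through the FC libraries. The median log2 fold difference of the 10 genes was 0.33, and that of all genes was 0.08 (middle 50% from -0.48 to 0.69). No gene in the table passed limma at an adjusted p under 0.05 with a log2 fold difference over 0.5 in size (0%), where the smallest adjusted p was 0.197 and 2280 genes had an unadjusted p under 0.05. edgeR called 0 of 14489 genes on the recovered reads, with 2404 at an unadjusted p under 0.05, and DESeq2 called 7.47% of 15093 genes. Fgf3, Fgf10 and Fgfr3 were among the genes called by DESeq2. Those calls are no support for these genes, which were chosen with the contrast known.

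**Figure D1:**
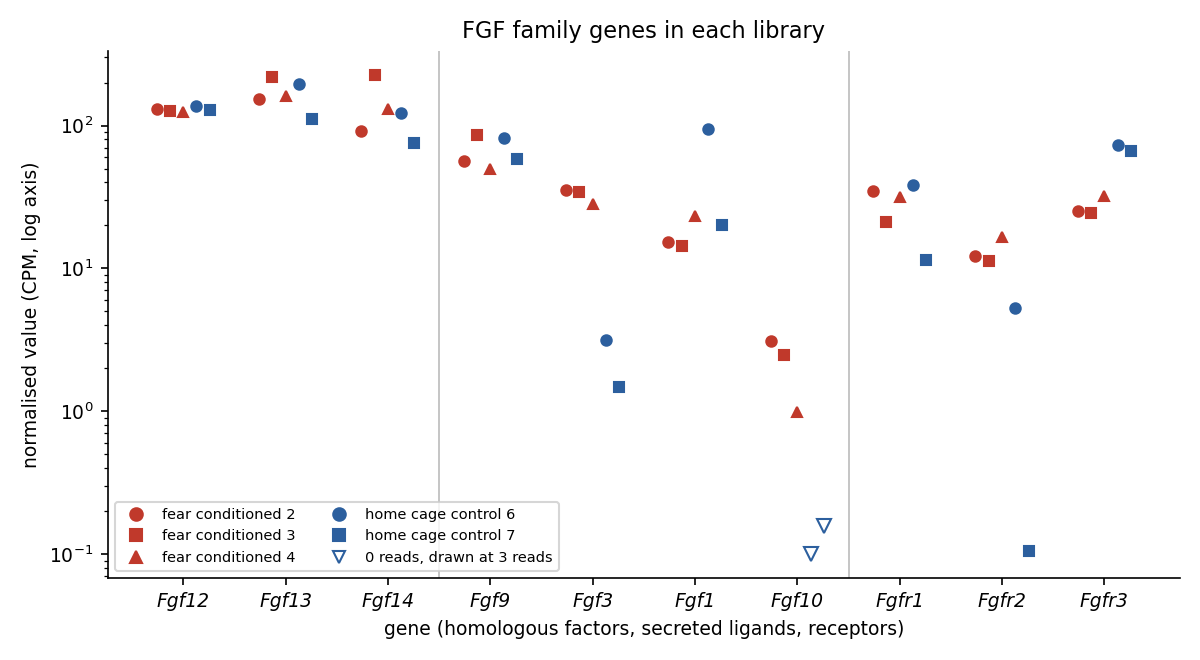
Normalised value in CPM (log axis) of each FGF gene in each library, with red for the 3 fear conditioned and blue for the 2 control libraries, ordered by class. Open triangles are controls with 0 reads, drawn at the value of 3 reads. Fgf12 lies on 1 level in all 5 libraries, Fgf3 and Fgf10 lie higher in red, Fgfr3 lies lower in red, and for Fgf1 and Fgfr2 the 2 blue points lie far apart.

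**Figure D2:**
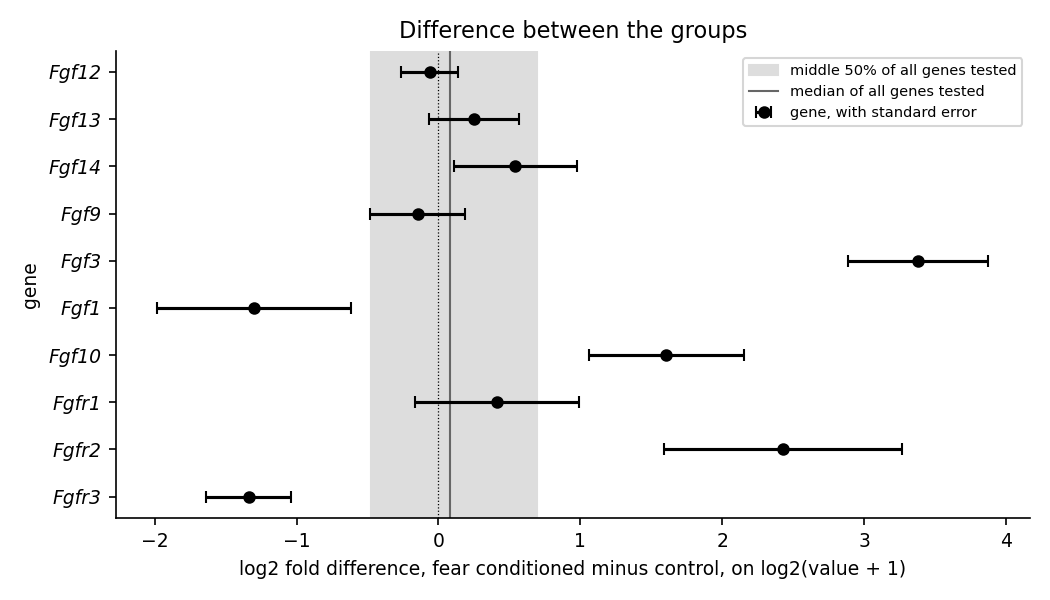
Log2 fold difference, fear conditioned minus control, on log2(value + 1), with its standard error from the limma fit (3 against 2 libraries). The grey band holds the middle 50% of all genes tested, from -0.48 to 0.69, and its line their median of 0.08. Fgf3, Fgf10 and Fgfr2 lie right of the band, Fgf1 and Fgfr3 lie left of it, and the other 5 genes lie inside.

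Divided by gene length, the homologous factors were the most abundant of the 10 genes. Over all 5 libraries, the mean level per kb was 42.2 CPM for Fgf12, 40.1 for Fgf13 and 20.3 for Fgf14, then 15.6 for Fgf9, 8.84 for Fgf3, 7.16 for Fgfr3, 4.21 for Fgf1, 3.41 for Fgfr1, 1.05 for Fgfr2 and 0.277 for Fgf10. In this order, Fgf12 and Fgf13, Fgf14 and Fgf9, and Fgf1 and Fgfr1 had overlapping ranges in both groups. Fgf9 and Fgf3 overlapped in the FC libraries alone, and Fgfr3 and Fgf1 in the controls alone. The homologous factors together made 69.6%, 74.1% and 72.4% of the summed level per kb of the 10 genes in the FC libraries and 69.0% and 73.4% in the controls. These shares overlapped between the groups.

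Fgf12, an FGF homologous factor of neurons, was the steadiest of the 10 genes. It was at 131, 127 and 124 CPM in the FC libraries and at 138 and 128 CPM in the controls. The 5 values spanned 0.15 on the log2 scale, and 0.103% of the 13560 genes spanned less. Among the 2837 genes within 2-fold of its mean level, 0.212% spanned less. The log2 fold difference was -0.06 (SE 0.20), and the controls, which disagreed for most genes, differed here by -0.10 (control 7 minus control 6).

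Fgf13, whose protein binds sodium channels and microtubules, was more variable. Its values were 153, 219 and 162 CPM against 195 and 111 CPM, so that the groups overlapped, with a log2 fold difference of 0.25 (SE 0.32). The sign turned without control 7 (-0.15) and the value was 0.65 without control 6. Fgf14, the homologous factor linked to spinocerebellar ataxia, was at 91.3, 227 and 131 CPM against 122 and 74.9 CPM. Library 3 was the high one among the FC libraries, in Fgf14 as in Fgf13. The log2 fold difference of Fgf14 was 0.54 (SE 0.43), and it ran from 0.19 without FC library 3 to 0.89 without control 6. The Fgf14 gene overlaps Itgbl1 in the RefSeq table, and how reads in such stretches were assigned is not given in the sources used here. Fgf11, the remaining homologous factor, was not among the 10 genes. It was at 30.2, 17.3 and 38.3 CPM against 25.3 and 1.37 CPM, again with control 7 as the low library.

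Fgf3, a secreted ligand best known from inner ear development and as an integration site of a mouse mammary tumor virus, had the largest log2 fold difference of the 10 genes on log2(value + 1), a scale that understates Fgf10, which had 0 reads in both controls. It was at 35.3, 34.4 and 28.3 CPM in the FC libraries (744, 825 and 570 reads) and at 3.17 and 1.48 CPM in the controls (95 and 28 reads). The groups were far apart and the FC libraries were close together, with an SD of 0.17 on the log2 scale against 0.53 in the controls. The mean was 32.6 ± 3.79 CPM (SD, n = 3) against 2.32 ± 1.20 CPM (SD, n = 2), 14.0-fold higher, and the log2 fold difference was 3.38 (SE 0.49). It was 3.01 without control 7 and 3.76 without control 6. Since Drd2 was also higher in the FC libraries, Fgf3 was set against it: Fgf3 was 10.8%, 9.17% and 5.10% of Drd2 in CPM in the FC libraries and 2.47% and 0.564% in the controls. These ratios did not overlap either. Read against all listed genes, Fgf3 stood above 59.7% to 64.9% of the genes in the FC libraries and above 22.4% and 28.6% in the controls.

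The genes whose profile over the 5 libraries lay nearest to that of Fgf3 were 2810422O20Rik, Fancb, Harbi1, Zscan12 and Lyplal1, with root mean square distances of 0.190, 0.208, 0.209, 0.235 and 0.258 between the centred log2 values. Each was at 8.33 to 15.5 CPM in the FC libraries. In control 6 they were at 0.10 to 1.30 CPM, and in control 7 each had at most 1 read. Fgf3 itself kept 28 reads in control 7. Fancb encodes a DNA repair protein and Harbi1 a protein derived from a transposase.

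Fgf10, the ligand of Fgfr2 in branching organs such as the lung, was the least abundant of the 10 genes. It had 65, 59 and 20 reads in the FC libraries (3.08, 2.46 and 0.993 CPM) and 0 reads in both controls. Against the floor of 3 reads in each control library, the fear conditioned mean was at least 16.8-fold higher. The fitted log2 difference of 1.60 (SE 0.55) depends on the pseudocount and is no bound: it was 4.37 with a pseudocount of 0.1. On values made equal in distribution by quantile normalization, the groups overlapped for Fgf10.

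Fgf9, a ligand made by neurons and glia, was the most abundant secreted ligand over all libraries. Its values were 56.6, 85.8 and 49.8 CPM against 82.0 and 58.2 CPM, and the log2 fold difference was -0.15 (SE 0.34), which turned to 0.10 without control 6 and to 0.01 without FC library 4. Per kb, Fgf9 (15.04 CPM) and Fgf3 (14.1 CPM) were at like levels in the FC libraries, with ranges that overlapped. In the controls Fgf9 was at 16.5 CPM per kb and Fgf3 at 1.00.

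Fgf1, a ligand of all FGF receptors that leaves cells without a signal peptide, was at 15.2, 14.4 and 23.3 CPM in the FC libraries and at 94.9 and 20.0 CPM in the controls. Control 6 alone was high, and control 7 lay inside the range of the FC libraries. The log2 fold difference of -1.30 (SE 0.68) was -0.20 without control 6 and -2.39 without control 7. Relative to Drd2, Fgf1 was at 4.67%, 3.85% and 4.21% in the FC libraries and at 73.9% and 7.64% in the controls, and these ratios did not overlap. Drd2 was itself higher in every FC library, which lowers such a ratio for a gene of unchanged level. The same ratio for Fgf9 overlapped, at 17.3%, 22.9% and 8.98% in the FC libraries against 63.9% and 22.2%. Fgf1 overlaps Arhgap26 in the RefSeq table, so the limit given for Fgf14 applies here too.

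The make-up of the secreted ligands differed between the libraries. The 4 ligands summed to 110, 137 and 102 CPM in the FC libraries and to 180 and 79.7 CPM in the controls, which overlapped. Per kb, Fgf3 made 49.0%, 39.7% and 45.1% of the 4 ligands in the FC libraries and 4.20% and 3.78% in the controls. Fgf9 made 42.8%, 54.1% and 43.3% against 59.2% and 81.3%, and Fgf1 made 6.15%, 4.85% and 10.8% against 36.6% and 14.9%. Shares of a common sum depend on each other, and Fgf9 and Fgf1 themselves overlapped in CPM.

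The receptors differed from each other in direction. Fgfr1, the FGF receptor typical of neurons, was at 34.8, 21.0 and 31.5 CPM against 38.4 and 11.4 CPM. The groups overlapped and the controls were the extremes. Its log2 fold difference of 0.41 (SE 0.58) was -0.42 without control 7 and 1.25 without control 6.

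Fgfr2, the receptor of Fgf10 and Fgf3 in its epithelial isoform, was at 12.3, 11.3 and 16.5 CPM in the FC libraries and at 5.31 and 0.105 CPM in the controls. Control 7 held 2 reads (exact Poisson 95% interval 0.0128 to 0.381 CPM), while control 6 held 159 and the FC libraries 259 to 332. The mean was 4.94-fold higher in the FC libraries, and set against control 7 alone it was 127-fold higher (35.1 to 1046). The log2 fold difference of 2.43 (SE 0.84) was 1.17 without control 7 and 3.68 without control 6, so its size rested on which control was used while its direction did not. The table gives 1 value per gene and does not separate the isoforms of Fgfr2.

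Fgfr3, the receptor known from astrocytes, was lower in the FC libraries. It was at 25.03, 24.3 and 32.3 CPM against 73.2 and 66.4 CPM, a mean of 27.2 ± 4.41 CPM (SD, n = 3) against 69.8 ± 4.78 CPM (SD, n = 2). Here the controls were close to each other, and the control mean was 2.57-fold higher. The log2 fold difference was -1.34 (SE 0.30), and it stayed between -1.46 and -1.25 under every alternative tried. The sum of the astrocyte markers was lower too. Fgfr3 was 1.97%, 2.21% and 2.36% of the summed astrocyte markers in the FC libraries and 2.76% and 2.05% in the controls, so relative to them the groups overlapped. Of the 15 markers, 7 had every FC library below both controls, 0 had every one above, and the rest overlapped. Their log2 fold differences were negative for 11 and positive for 4, with a median of -0.71. None of the markers was at 0 in any library. Gfap, the intermediate filament of astrocytes, was at 8.77, 8.54 and 18.0 CPM against 29.2 and 31.5 CPM. Fgfr2 did not share this: it was 0.967%, 1.03% and 1.21% of the astrocyte sum in the FC libraries and 0.200% and 0.00325% in the controls. The astrocyte sum was lower in every FC library, which raises such a ratio for a gene of unchanged level. The ratio in control 7 rests on 2 reads of Fgfr2.

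**Figure D3:**
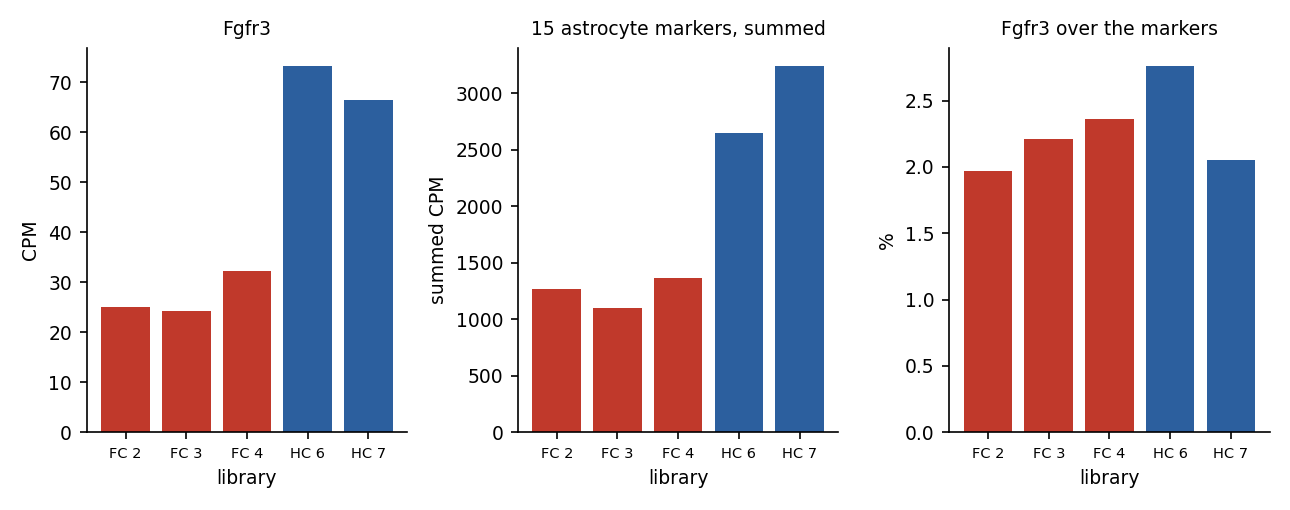
Bars from 0 for each library (FC, fear conditioned, red; HC, Home Cage control, blue): Fgfr3 in CPM, the 15 astrocyte markers summed in CPM, and Fgfr3 as a percentage of that sum. The first 2 panels are lower in all 3 FC libraries, and in the last panel the FC bars (1.97% to 2.36%) overlap with the HC bars (2.05% and 2.76%).

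The mix of receptor transcripts also differed between the libraries. Per kb, Fgfr3 made 41.4%, 50.1% and 47.4% of the 3 receptors in the FC libraries and 68.8% and 88.3% in the controls. Fgfr1 made 44.2%, 33.3% and 35.5% against 27.7% and 11.6%, and Fgfr2 made 14.4%, 16.6% and 17.2% against 3.54% and 0.0994%. None of the 3 shares overlapped between the groups. They are parts of the same sum and so depend on each other, and Fgfr1 itself overlapped in CPM. The summed receptor values overlapped, at 72.1, 56.6 and 80.2 CPM against 117 and 77.9 CPM.

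**Figure D4:**
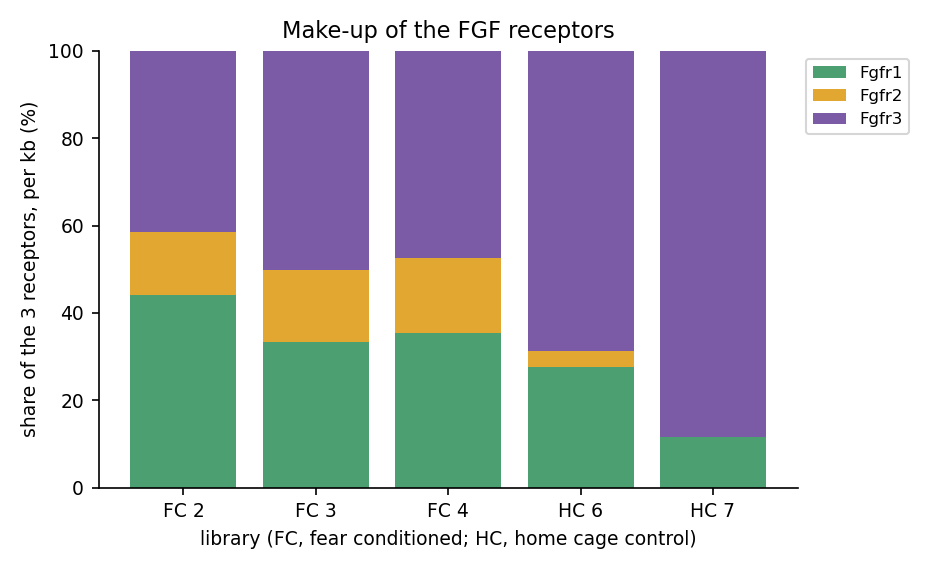
Share of Fgfr1, Fgfr2 and Fgfr3 in their summed level per kb (%), as stacked bars for each library (FC, fear conditioned; HC, Home Cage control). Fgfr3 takes 41.4% to 50.1% in the FC libraries and 68.8% and 88.3% in the HC libraries.

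The controls set the error of most of these values. For 6 of the 10 genes the difference between the controls exceeded the whole range of the FC libraries, as it did for 75.7% of all genes. Control 7 was below control 6 for 9 of the 10 genes, all but Fgf10, which was at 0 in both (55.6% of all genes were below). The largest gaps were those of Fgfr2 (-2.51 on the log2 scale), Fgf1 (-2.19) and Fgfr1 (-1.67), and the smallest those of Fgf12 (-0.10) and Fgfr3 (-0.14).

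Other genes of the pathway were taken from lists of 91 genes, of which 75 were in the table and 73 passed the filter. Against limma's thresholds 0 of the 73 were called, with a smallest adjusted p of 0.197. In limma, 14 of the 73 had an unadjusted p under 0.05 (6 higher, 8 lower), beside 2280 of all 13560 genes. edgeR called 0. DESeq2 called 5 of the 73, beside 7.47% of all 15093 genes. Among the 5 were Fgf16 and Dusp6, which were higher, and Frs2 and Il17rd, which were lower. The lists were chosen with earlier results of these data known, so these calls are no support for the pathway genes. Groups did not overlap for 31 genes (42.5%; 13 higher, 18 lower), beside the 36.4% over all genes, and the median log2 fold difference was -0.04. Fgf2, Fgf4, Fgf6, Fgf7, Fgf8, Fgf15, Fgf17, Fgf20, Fgf21 and Fgf23 were not among the listed genes, where each gene reached at least 1.00 CPM in some library. Just inside that limit lay Fgf5, which peaked at 1.29 CPM in FC library 3, and Fgf22, which peaked at 1.54 CPM in control 6.

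Among the other ligands and receptors, Fgf16, a ligand of the Fgf9 subfamily, resembled Fgf10. It was at 2.09, 3.58 and 2.78 CPM in the FC libraries and had 0 reads in both controls, which makes it at least 21.8-fold higher. Like Fgf10, it passed the filter on low values only through the FC libraries. Kl, the co-receptor for Fgf23 and a marker of the choroid plexus, was at 6.26, 10.4 and 5.91 CPM against 17.9 and 25.7 CPM. Fgfrl1, a receptor without a kinase domain, was at 3.65, 2.29 and 2.53 CPM against 6.48 and 10.6 CPM. Both were thus lower in every FC library, with log2 fold differences of -1.44 (SE 0.52) for Kl and -1.30 (SE 0.56) for Fgfrl1.

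The heparan sulfate list held proteoglycans, which hold FGFs at the cell surface, and enzymes that act on heparan sulfate. Of its 18 genes tested, 1 was higher without overlap and 5 were lower, with a median of -0.35. Gpc1, a glypican of neurons, was at 81.4, 112 and 86.4 CPM against 70.8 and 55.9 CPM. Sdc4, a syndecan, was at 17.7, 7.75 and 22.5 CPM against 29.8 and 71.6 CPM. Gpc3, another glypican, was at 3.51, 1.54 and 1.74 CPM against 6.98 and 5.27 CPM.

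Of the 24 signalling genes downstream of the receptors, 6 were higher without overlap and 4 lower, with a median of 0.07. Frs2, the docking adaptor that FGF receptors phosphorylate, was at 16.2, 20.4 and 24.1 CPM against 43.6 and 87.5 CPM, a log2 fold difference of -1.58 (SE 0.42). It was called by DESeq2 and not by limma, where its adjusted p was 0.206. The call is no support for Frs2, as its list was chosen with earlier results known. Sos1, the exchange factor that activates Ras, was at 26.5, 35.9 and 37.0 CPM against 46.5 and 55.8 CPM. The adaptors Shc3 and Gab1 had the largest differences upwards, of 2.65 (SE 0.74) and 1.88 (SE 0.86), and both were nearly absent from control 7, where they had 1 and 5 reads.

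Of the 16 feedback inhibitors and target genes tested, 4 were higher without overlap and 4 lower, with a median of -0.42. Dusp6, the phosphatase that switches off ERK and is itself induced by FGF signalling, was at 39.6, 71.8 and 40.7 CPM against 16.1 and 10.9 CPM. Its log2 fold difference was 1.81 (SE 0.42, limma adjusted p of 0.197). DESeq2 called Dusp6, which is no support for it, as its list was chosen with earlier results known. Dusp5, a related phosphatase, was at 13.4, 14.7 and 7.20 CPM against 6.55 and 0.105 CPM. Il17rd (Sef), an inhibitor at the receptor, went the other way, at 0.142, 0.541 and 0.546 CPM against 14.1 and 3.37 CPM. Etv1, a transcription factor downstream of FGF signalling, was at 38.5, 34.9 and 42.7 CPM against 61.3 and 108 CPM. The Sprouty genes of the list, inhibitors of the MAP kinase cascade, were added here after their values were seen. Spry1 (6.95 to 9.86 CPM against 11.3 and 11.8 CPM) and Spry4 (5.26 to 7.12 CPM against 7.41 and 14.98 CPM) were lower without overlap. Spry2 overlapped, at 8.68, 5.75 and 10.3 CPM against 2.47 and 47.6 CPM. The feedback genes thus held members in both directions.

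Of the 8 sodium channel subunits, the partners of the homologous factors, 1 was higher and 3 were lower without overlap, and the median was -0.08. Scn3b, a beta subunit, was at 56.4, 82.2 and 84.3 CPM against 109 and 130 CPM, and Scn3a, an alpha subunit of the developing brain, at 31.9, 45.6 and 50.7 CPM against 52.6 and 79.9 CPM. Scn8a, the main alpha subunit of the axon initial segment, was named after its values were seen: it was at 108, 156 and 173 CPM against 176 and 121 CPM, with groups that overlapped.

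**Figure D5:**
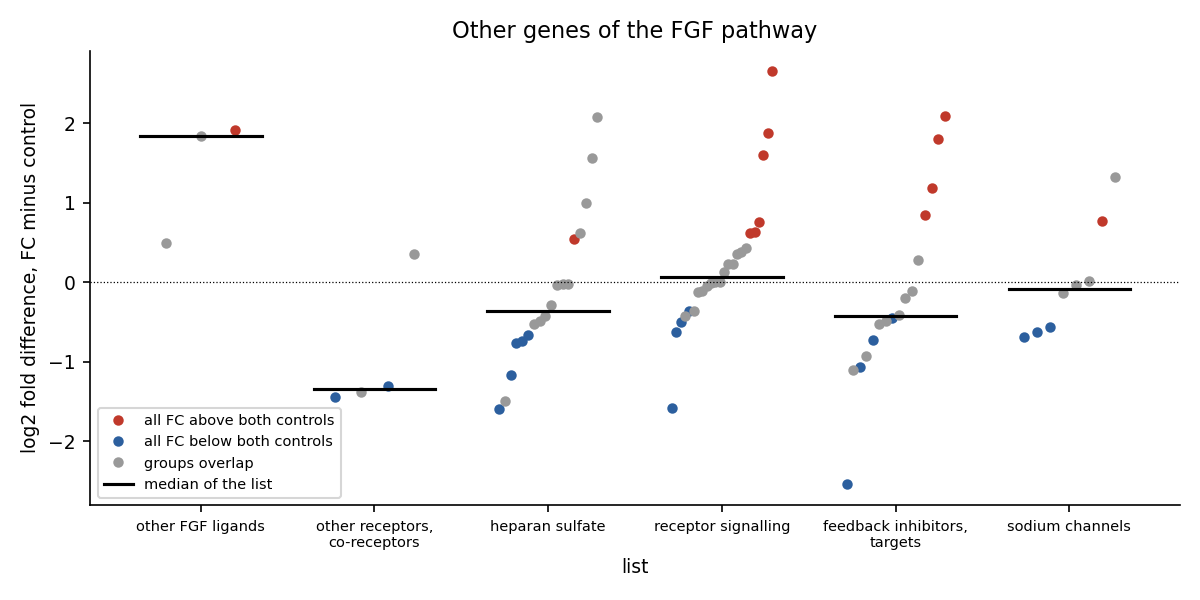
Log2 fold difference, fear conditioned (FC) minus control, of the 73 other pathway genes that were tested, as 1 point per gene in 6 lists, with the median of each list as a line. Red points have all FC libraries above both controls (13 genes), blue points have all below (18 genes), and grey points overlap. Points of both colours appear in the lists of heparan sulfate genes, signalling, feedback and sodium channels.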

How the data were processed

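The authors deposited 1 table with a normalized read signal per gene and library, together with a gene length. The submitters' processing notes name DESeq and the build mm8, and the study's methods name the Tuxedo software beside DESeq. Which aligner and counter were run is not given in the sources used here, nor whether reads were counted by strand. Every library column had a sample (0 columns without one). The values were not raw counts. They summed to between 932938 and 1042030 per library and were whole multiples of the value of 1 read within a tolerance of 0.01, so reads were recovered by division (100% of the values came out whole). The table holds genes that reached 1.00 in some library, and 9 lengths were below 0.

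Genes with a mean of at least 1 were tested with limma 3.58.1 (R 4.3.3; eBayes with trend) on log2(value + 1), 3 fear conditioned against 2 control libraries, two-sided, with Benjamini-Hochberg adjustment over all genes tested, an adjusted p under 0.05 and a log2 fold difference over 0.5. p-values measure the spread between pools. edgeR 4.0.16 (quasi-likelihood) and DESeq2 1.42.0 on the recovered reads were alternatives, along with a pseudocount of 0.1, other filters and thresholds, quantile normalization, array weights and leaving out each library. The fits were also run on simulated data that had the spread of the fear conditioned libraries. The controls differed more than that, so the simulation does not show how the fits behave on these data. Fold differences understate the change of low genes.

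The 10 genes and the gene lists were chosen with earlier results of these data known. Text names the 10 genes, up to 2 genes higher and 2 lower per pathway list by size of difference among those whose groups do not overlap, the 5 genes nearest to Fgf3, and Drd2 and the highest genes of marker lists. Spry1, Spry2, Spry4, Scn8a, Gfap, Fgf5, Fgf11 and Fgf22 were named after their values were seen. A gene that this rule names is not reported here. Symbols are those of the table. Promoter windows and overlapping genes came from RefSeq (GRCm38.p6), a build other than that of the files, and were matched by gene name.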

Additional observations from a re-analysis of the deposited data

How the results depend on the processing

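No paired analysis was possible because the groups share no replicate numbers. The count of genes past both thresholds was 0 in limma and 1128 in DESeq2, and with each library left out it ran from 0 to 8025 (8025 without control 6, 3722 without control 7, 1 without fear conditioned library 3). With 1 control left, that library is assumed to vary like the fear conditioned ones. For pathway genes the count was 0 in limma, 5 in DESeq2 and 0 to 45 with each library left out (45 without control 6, 16 without control 7). The 4 FGF genes that did not overlap became 5 to 7 with each library left out (7 without either control), and the 31 pathway genes became 32 to 62. The share over all genes with a library left out is not given here, so nothing about these genes is read from those counts. The cause was not tested, though groups of fewer libraries overlap less often by construction. With edgeR, array weights, the lower pseudocount, other filters, an adjusted p under 0.1 and no fold threshold, limma's or edgeR's count stayed at 0.

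Of 107 values of the 10 genes' log2 fold differences under alternatives, 87 lay within 1 SD of the reported value, 20 moved further, and 4 changed sign: Fgf9 (0.10 without control 6, 0.01 without fear conditioned library 4), Fgf13 (-0.15) and Fgfr1 (-0.42), both without control 7. Fgf3 ranged from 3.01 to 3.84, Fgfr2 from 1.17 to 3.68, Fgf1 from -2.39 to -0.20 and Fgf10 from 0.80 to 8.64. DESeq2 shifted the median of all genes by -0.19, and edgeR by -0.12. With 0 to 28 reads, control 7 limits Fgf3, Fgf10 and Fgfr2.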
